A study of Mus musculus with 4 samples.

Results

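Cytosolic ribosomal protein genes are described here by the CTCF peaks at their promoters in mouse hippocampus. Members were the protein-coding genes whose symbols read Rpl or Rps plus a number and at most 1 further letter, with Rplp0, Rplp1, Rplp2 and Rpsa, and without the Rps6k kinases. The rule found 80 genes among 21755 protein-coding genes of the GENCODE M21 annotation on autosomes and X. CTCF chromatin immunoprecipitation sequencing was done on hippocampus of 2-month-old male B6CASTF1/J mice, F1 hybrids of C57BL/6J and CAST/EiJ. There was 1 condition, with no treatment and no mutant, and tissue came from 2 pools of 7 biosamples each, the biological replicates 1 and 2, every pool giving 2 technical libraries. Occupancy data read no RNA, so the tissue label could not be checked against markers, and a bulk pool of hippocampus cannot tell fewer occupied cells from less CTCF per cell.

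The cytosolic ribosome has a small subunit, which decodes the messenger RNA, and a large subunit, which forms peptide bonds. Its protein genes are expressed in nearly every cell, are kept in proportion to each other, and mostly have CpG-rich promoters whose transcripts start in a pyrimidine tract, the terminal oligopyrimidine (TOP) motif that couples their translation to mTOR signalling through LARP1. CTCF is a zinc-finger protein that binds a long, directional DNA motif, stops cohesin loop extrusion and is often found at promoters of housekeeping genes.

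A member was called occupied when a peak summit lay within 1 kb of one of its transcription start sites (TSSs) in the between-replicate list, thresholded at an irreproducible discovery rate (IDR) of 0.05. Of the 80 members, 52 were occupied, or 65.0% (95% exact binomial interval 53.5 to 75.3%), against a background of 38.0% over all protein-coding genes. Among the 21675 other protein-coding genes, 8216 were occupied, or 37.9% (37.3 to 38.6%). The members' interval lies above the share of the other genes, but it covers the counting of genes only, and no test of the list was run. Peak height is the authors' caller score, whose scale is not stated, so it ranks peaks within a list and carries no unit. The list ran from 12.9 to 966 with a median of 165. In these data the value of the between-replicate list was close to the sum of the values of the 2 replicates.

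Start regions are printed for the 6 strongest members with a RefSeq promoter entry whose strongest summit lies inside the run, because summit, motif and start can then be read in the same stretch of DNA. Rpl37, Rpl38 and Rpl13a had higher peaks than Rpl5 and Rpl36a, but with summits outside the run. Each run is given on the gene's strand and ends 20 bases after 1 annotated TSS per gene, which is base 200 (RefSeq GRCm38.p6, the assembly that mm10 names). Capitals mark the closest stretch, with at most 2 mismatches on either strand, to the 12-letter CTCF core consensus within 50 bp of the summit. No stretch is capitalised for Rpl36a, whose closest one had 3 mismatches.
Rpl26 (chr11:68901384-68901603, plus strand): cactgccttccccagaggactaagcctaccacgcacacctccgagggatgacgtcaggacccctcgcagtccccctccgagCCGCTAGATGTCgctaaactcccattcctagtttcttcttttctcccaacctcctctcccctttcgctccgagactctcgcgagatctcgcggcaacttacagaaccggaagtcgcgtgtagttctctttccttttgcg
Rpl10a (chr17:28328369-28328588, plus strand): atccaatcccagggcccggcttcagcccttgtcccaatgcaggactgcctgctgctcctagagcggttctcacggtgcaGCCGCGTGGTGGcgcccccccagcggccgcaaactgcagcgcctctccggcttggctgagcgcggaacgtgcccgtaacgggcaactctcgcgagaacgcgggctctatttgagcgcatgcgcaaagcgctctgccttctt
Rpl11 (chr4:136053373-136053592, minus strand): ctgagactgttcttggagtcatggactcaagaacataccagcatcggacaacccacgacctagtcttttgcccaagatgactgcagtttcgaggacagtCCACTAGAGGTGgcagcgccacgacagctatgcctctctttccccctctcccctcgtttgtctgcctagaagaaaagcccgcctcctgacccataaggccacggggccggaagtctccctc
Rplp0 (chr5:115559268-115559487, plus strand): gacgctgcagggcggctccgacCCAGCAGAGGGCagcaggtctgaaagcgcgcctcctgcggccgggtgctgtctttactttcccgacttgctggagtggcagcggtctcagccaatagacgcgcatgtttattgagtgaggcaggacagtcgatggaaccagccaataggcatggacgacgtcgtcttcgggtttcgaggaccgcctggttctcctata
Rpl5 (chr5:107900303-107900522, plus strand): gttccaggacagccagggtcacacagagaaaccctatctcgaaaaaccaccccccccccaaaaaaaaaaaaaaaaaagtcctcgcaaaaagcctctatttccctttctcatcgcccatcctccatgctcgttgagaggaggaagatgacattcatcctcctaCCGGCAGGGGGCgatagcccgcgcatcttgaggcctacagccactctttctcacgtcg
Rpl36a (chrX:134585455-134585674, plus strand): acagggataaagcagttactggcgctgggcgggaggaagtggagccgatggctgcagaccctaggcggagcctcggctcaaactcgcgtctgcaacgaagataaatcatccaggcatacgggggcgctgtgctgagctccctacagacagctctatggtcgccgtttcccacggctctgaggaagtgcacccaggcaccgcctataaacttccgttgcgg
The summit stood at base 78 in the run of Rpl26, base 93 in Rpl10a, base 110 in Rpl11, base 36 in Rplp0, base 178 in Rpl5 and base 131 in Rpl36a. Rpl10a has 4 annotated TSSs, and its summit is nearest to one that lies inside the run, 10 bp downstream of the summit. The stretch had no mismatch in Rplp0, 1 in Rpl5 and 2 in Rpl26, Rpl10a and Rpl11, so 4 of these 6 strong peaks, with that of Rpl36a, had no copy of the core with fewer than 2 mismatches. Of the 80 members, 60 had an entry in the RefSeq promoter table; sequences are shown for these members alone.

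Beginning with the large subunit, 29 of 46 Rpl genes outside the stalk were occupied, or 63.0% (47.5 to 76.8%), with a median signal of 286. Rpl26, whose protein lies near the exit of the peptide tunnel, had the highest signal of any member at 886, with 442 in replicate 1 and 448 in replicate 2. This placed it 44th among 8268 occupied coding genes ranked by their strongest promoter peak. Rpl36 had 817, with 402 and 416 in replicates 1 and 2, and Rpl10a had 807, with 417 and 395. The replicates kept these 3 within a narrow band. Their summits lay 122, 85 and 10 bp upstream of the nearest annotated TSS, in the order named.

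Rpl5 and Rpl11 bind 5S ribosomal RNA and, as a free particle, inhibit MDM2 and stabilise p53. Both were occupied. Rpl11 had a signal of 792, with 379 in replicate 1 and 414 in replicate 2, 90 bp upstream of the TSS. Rpl5 had 641, with 306 and 337, 22 bp upstream. Other strong large-subunit genes had their highest summit farther from the start. Rpl37 reached 662 (313 and 352 in replicates 1 and 2) 308 bp upstream, and Rpl38 reached 647 (305 and 341) 532 bp downstream, in an intron.

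In the small subunit, 21 of 31 genes were occupied, or 67.7% (48.6 to 83.3%), with a median signal of 346. The intervals of both subunits overlap widely. Rps14, which forms part of the platform of the subunit, had 755, with 372 in replicate 1 and 383 in replicate 2, and Rps29 had 667 (334 and 335), with summits 257 and 597 bp upstream. Rps19, the gene most often mutated in Diamond-Blackfan anaemia in people, had 584 (280 and 304). The weakest occupied members also belonged to the small subunit: Rps24 had 37.9 (19.4 and 21.1), Rps16 had 39.2 (19.2 and 21.4) and Rpsa, also known as the laminin receptor, had 46.1 (24.3 and 26.3). Rps6, a phosphorylated protein of the same subunit, was next with 47.2, and its 22.8 and 24.7 in replicates 1 and 2 were below those of Rpsa. None of these weak members was occupied in any of the other peak lists compared below.

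The stalk of the large subunit recruits elongation factors and is built on Rplp0 by dimers of Rplp1 and Rplp2. Rplp0 had 780, with 385 in replicate 1 and 401 in replicate 2. Rplp2 had 77.4, with 44.0 and 34.8, and Rplp1 was unoccupied, its nearest summit 3915 bp away. Proteins that assemble into the same structure therefore had promoters at the high end and at the low end of the called peaks. At Rplp1 no summit lay within 1 kb in the between-replicate list.

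**Figure D1:**
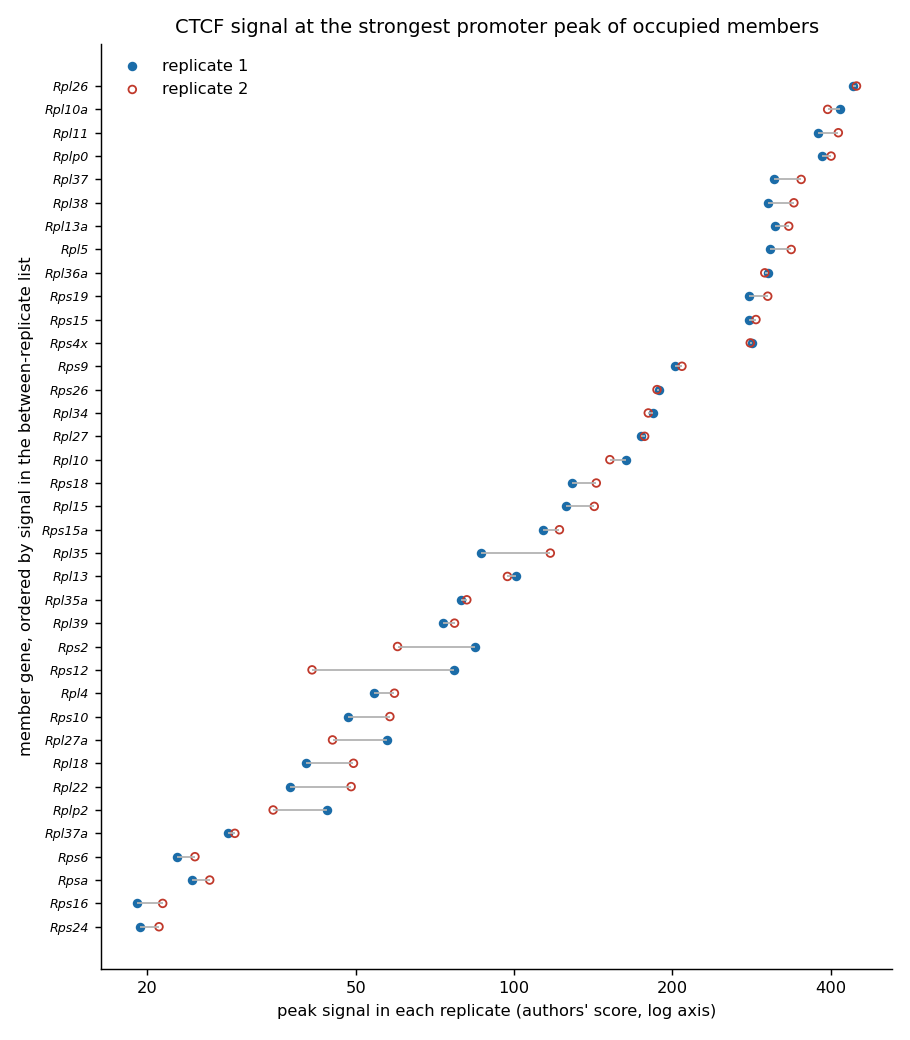
Peak signal (authors' score, log axis) in replicate 1 (filled) and replicate 2 (open) at the strongest promoter peak of each of the 37 occupied members with a RefSeq promoter entry, ordered by the between-replicate value with the highest on top. Rpl26 had 442 and 448, Rps24 had 19.4 and 21.1, and the gap between replicates widens among the weaker peaks, where Rps12 had 76.7 and 41.2.

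Signal ran from 37.9 to 886 over the occupied members. The plot of both replicates by gene shows nearly the same order, in a list that keeps only peaks reproducible between them. The median was 299.9 over the 52 occupied members and 197 over the 8216 other occupied coding genes. The values had a gap in their upper part: 19 members had a signal of 562 or more, and the next member, Rps9, had 410. At 500 or more stood 36.5% of the occupied members and 24.0% of the other occupied genes, and at 750 or more 8 members, or 15.4%, and 649 other genes, or 7.9%. The median member stood at the 62.4th percentile of occupied coding genes. At their 63 peaks with their own pair of replicate peaks, the log2 ratio of replicate 2 over replicate 1, less the median of 0.09 over the whole list, had a median of -0.01 and an SD of 0.26.

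Agreement between replicates depended on height. At a signal of 200 or more the SD of the centred log2 ratio was 0.12 over 34 member peaks and 0.16 over 4073 other promoter peaks, and under 200 it was 0.36 over 29 member peaks and 0.55 over 5516 others. Over the 63 member peaks the log2 signals of replicates 1 and 2 had a Pearson's r of 0.98 and a Spearman's rho of 0.98. These values describe peaks from the same pair of pools, in a list that keeps only peaks reproducible between them. Close agreement is thus partly set by that choice. The lowest centred ratios were -0.99 at Rps12, with 76.7 in replicate 1 and 41.2 in replicate 2, -0.67 at Rpl30, with 86.7 and 58.0, and -0.58 at Rps2, with 84.2 and 59.96. The highest were 0.56 and 0.52 at the 2 summits of Rpl29, with 32.8 and 51.5 at one and 56.9 and 87.2 at the other, followed by 0.43 at the downstream summit of Rps15. All of these peaks had a signal under 200, and 57 of the 63 ratios lay within 0.5 of 0. With 2 pools, no replicate difference at a single gene could be tested.

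Families taken by symbol alone were counted in the same way, without a check of subunit membership or of expression. Occupied were 45 of 78 mitochondrial ribosomal protein genes, 57.7% (46.0 to 68.8%), 20 of 39 proteasome subunit genes, 51.3% (34.8 to 67.6%), and 21 of 46 complex I genes with Nduf symbols, 45.7% (30.9 to 61.0%). The members' interval overlaps all 3 of these. Height did not follow the share: the median signal over occupied genes was 299.9 in the members, 141 in mitochondrial ribosomal proteins, 316 in proteasome subunits and 626 in complex I genes. Annotated pseudogenes of the members, mostly retrotransposed copies without the parent's promoter, were occupied in 16 of 287 cases, or 5.57% (3.22 to 8.90%).

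**Figure D2:**
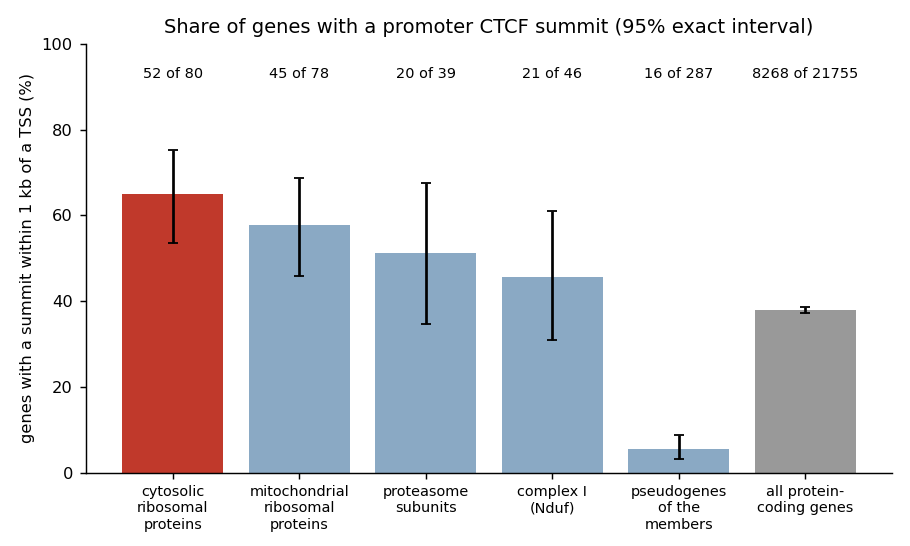
Share of genes (%) with a CTCF summit within 1 kb of a TSS in each family, with 95% exact intervals as lines and counts above the bars. Cytosolic ribosomal protein genes stood at 65.0%, pseudogenes of the members at 5.57% and all protein-coding genes at 38.0%.

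The distance from the start to the nearest summit showed the same difference without a limit of 1 kb. Its median was 383 bp in the members and 2689 bp in the other coding genes. Within 500 bp stood 46 members, or 57.5%, against a background of 30.3% over all coding genes, and within 5 kb 70 members, or 87.5%, against 59.6%. Within 10 kb stood 97.5% of the members and 71.1% of the other genes. Only Rpl10l and Rpl39l among the 80 had no summit within 10 kb. Just inside the limit of 1 kb were Rps2, with its nearest summit at 889 bp and a signal of 142, Rpl13 at 884 bp with 193 (101 and 97.1 in replicates 1 and 2), and Rpl35a at 847 bp with 163 (79.3 and 81.2). Just outside were Rpl7a at 1204 bp with 276 (124 and 152), Rpl14 at 1259 bp with 527 (256 and 269), and Rps13 at 1345 bp with 78.9 (35.8 and 42.5). The limit thus left out peaks as high as those it took in, and at a limit of 2 kb 61 members were occupied, against a background of 46.2%.

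**Figure D3:**
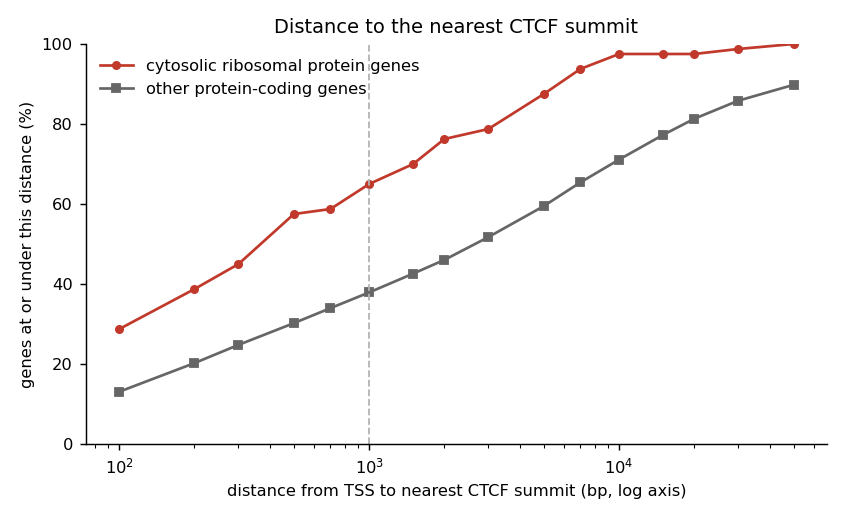
Cumulative share of genes (%) by distance from the TSS to the nearest CTCF summit (bp, log axis) in cytosolic ribosomal protein genes (circles) and other protein-coding genes (squares), with the 1 kb limit dashed. The members' line stays above the other line throughout, with 65.0% and 37.9% at 1 kb.

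The 28 unoccupied members were spread over both subunits. In the large subunit they were Rpl3l, Rpl6, Rpl7a, Rpl8, Rpl9, Rpl10l, Rpl12, Rpl14, Rpl17, Rpl19, Rpl21, Rpl23, Rpl24, Rpl28, Rpl31, Rpl39l, Rpl41 and the stalk gene Rplp1. In the small subunit they included Rps3, Rps7, Rps13, Rps21, Rps23, Rps25, Rps27, Rps27l and Rps28. Their nearest summits lay 1204 to 38781 bp away with a median of 3232 bp, 13 downstream of the start and 15 upstream. Some of these were among the high peaks of the list, as at Rps21, where a summit 5920 bp upstream had 868 (411 and 463 in replicates 1 and 2), and at Rpl17, where one 7234 bp upstream had 789.8 (385 and 408).

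Absence from the thresholded list did not always mean absence of a candidate. In the ranked list before thresholding, 21 of the 28 had a candidate peak within 1 kb. That list held 203931 peaks, against 90278 in the thresholded one. The share of other unoccupied coding genes with such a candidate was not counted, so this count has no background beside it. The best candidates of the 28 reached a -log10 IDR of 1.15 at Rps21 and 1.12 at Rps25. Both fell short of the 1.30 that an IDR of 0.05 requires, and the median over the 21 was 0.49. The 7 members with no candidate were Rpl3l, Rpl10l, Rpl12, Rpl19, Rpl39l, Rpl41 and Rps13. These include 3 of the 4 tissue-restricted or divergent paralogues in the annotation used. Rpl3l is the striated-muscle form of Rpl3, and Rpl10l and Rpl39l are the testis forms of Rpl10 and Rpl39. None of the 4, the last being the p53-induced Rps27l, was occupied. Of the other 76 members 52 were, or 68.4%, and of all protein-coding genes 38.0%. Of the partners of these 4 paralogues, Rpl3 had 86.3 (48.7 and 42.8), Rpl10 had 314 (163 and 152) and Rpl39 had 149.5 (73.1 and 77.0). Rps27, like Rps27l, was unoccupied.

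Occupied promoters mostly held 1 summit. There were 65 member summits, and 12 of the 52 occupied members, or 23.1%, held 2 or more, against 23.0% of other occupied coding genes. Rpl38 held 3, with 551 at 94 bp upstream and 315 at 390 bp upstream beside the 647 in its intron. Its 2 upstream summits were assigned the same replicate peaks (278 and 272), as were those of Rpl37a (28.5 and 29.4), which had 59.1 and 18.2 in the between-replicate list. Besides its strongest summit, Rpl37 had one of 242 (139 and 146), Rpl11 one of 119 (68.4 and 50.5) and Rps15, whose strongest had 567 (279 and 288), one of 96.4 (38.3 and 55.2). Rpl13a had 645 (314 and 333) and 71.7 (25.5 and 35.8), and Rpl36a had 605 (304 and 299.8) and 66.7 (33.3 and 37.0). In these 5 genes a high summit stood beside a lower one. In Rpl34 the stronger one was the intronic summit 810 bp downstream, with 362 (184 and 180), and the one 7 bp downstream had 65.5 (32.4 and 33.7). Rpl4 had 114 (54.1 and 59.1) and 88.3 (43.9 and 43.5), Rpl29 had 143 and 89.5, and Rpl18 had 90.2 (40.2 and 49.4) and 49.2 (23.4 and 25.8), all at weak peaks.

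Summits leaned upstream of the start. Of 65 member summits 48, or 73.8%, lay upstream and 17 downstream, against 56.5% upstream of 10427 gene and summit pairs at other coding genes. The median signed position was -95 bp in members and -41 bp in the others, and the median distance was 195 bp in members and 233 bp in the others. Upstream summits were also the higher ones: the 39 outside the annotated gene body had a median signal of 375, against 110 for the 13 in an exon and 149.5 for the 13 in an intron of the member. Exons of these genes have near-identical copies in the pseudogenes, and how the authors treated reads with several matches is not given in the sources used here, so the part of multiple mapping in the exonic values was not tested. The 27 members whose strongest summit lay within 200 bp of the TSS had a median signal of 375, and the other 25 had 207.

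**Figure D4:**
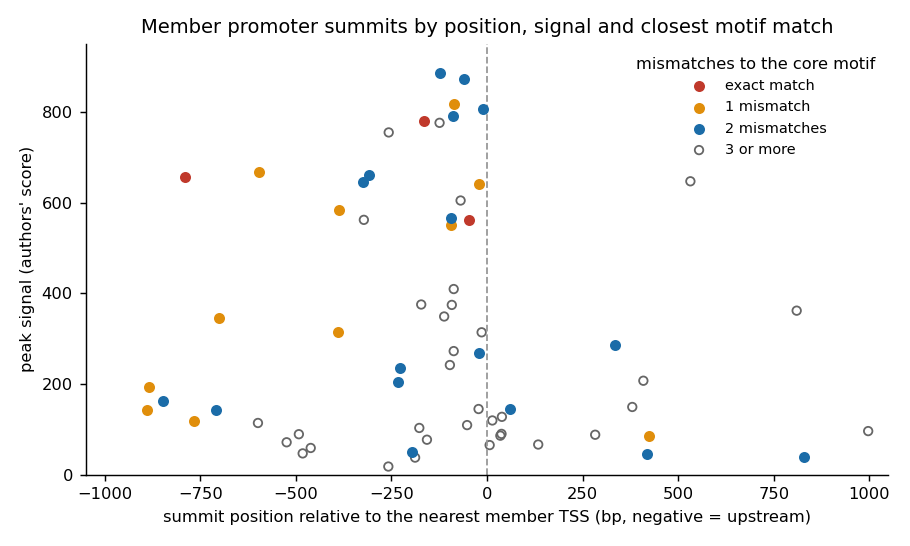
Signal (authors' score) of the 65 member promoter summits against their position relative to the member's nearest TSS (bp, negative upstream), coloured by mismatches to the CTCF core within 50 bp. Of these, 48 lie upstream, all 8 peaks of 750 or more lie there, and the 14 with at most 1 mismatch include 1 downstream summit, that of Rpl22.

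The 12-letter CTCF core consensus, searched on both strands and allowing 1 mismatch, was found no farther than 50 bp from 14 of 65 member summits, or 21.5% (12.3 to 33.5%), and of 1969 of 9589 other promoter summits, or 20.5% (19.7 to 21.4%). In equal windows 1 kb away the shares were 1.54% for members and 1.08% for the others. Member summits with a match had a median signal of 557 and those without 163, against 431 and 133 at other promoters. An exact match was found at 3 members, among them Rplp0, and Rps4x with 563 (283 and 281 in replicates 1 and 2). These windows, with the matching 12 bases in capitals and 9 bases on either side, are shown on the motif's strand for the members with a RefSeq promoter entry, to compare what the high and the low peaks carry.
Rplp0 (chr5:115559281-115559310, plus strand): ggctccgacCCAGCAGAGGGCagcaggtct
Rps4x (chrX:102189427-102189456, minus strand): gacctcccaCCAGCAGATGGCaagagagag
Rpl5 (chr5:107900456-107900485, plus strand): atcctcctaCCGGCAGGGGGCgatagcccg
Rps19 (chr7:24883976-24884005, plus strand): cagactccgGCACTAGATGGCggagctgaa
Rpl38 (chr11:114668449-114668478, plus strand): taatctgaaCCAGAAGAGGGCagggctgct
Rpl38 (chr11:114668076-114668105, minus strand): tcatggaggCCAGAAGAGGGCatcggatcc
Rpl13 (chr8:123101437-123101466, minus strand): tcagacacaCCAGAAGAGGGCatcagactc
Rps2 (chr17:24719175-24719204, minus strand): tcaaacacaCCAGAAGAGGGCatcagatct
Rpl11 (chr4:136054109-136054138, minus strand): acctgcataCCAGAAGAGGGCatcagatcc
Rpl22 (chr4:152326281-152326310, plus strand): aatggccctCCACCTGGTGGCcgggtttca
The 4 consecutive windows from the second one of Rpl38 to that of Rpl11 share more than the core: each reads CCAGAAGAGGGCATC, and the bases after it are similar. The same 15 bases were found at 1 further member, so 5 of the 14 member matches, or 35.7%, carried them, against 157 of 1969, or 7.97%, at other promoters. All 5 lay in soft-masked sequence, which marks repeats in the reference, as did the 157 others. Rodent short interspersed elements of the B2 family are known to carry a CTCF motif. The reference used here names no repeat class, so whether these copies belong to that family was not tested.

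Matches inside and outside that shared stretch differed in height, and their places overlapped. The 5 with the shared 15 bases lay 390 to 889 bp upstream of the TSS, with a median signal of 193, and the 4 shown had 119 at Rpl11, 142 at Rps2, 193 at Rpl13 and 315 at Rpl38. The other 9 had a median of 641, from 86.4 at Rpl22 (37.4 and 48.9) to 817 at Rpl36, and lay both nearer the TSS, at 22 bp in Rpl5, and inside the same range of distances, at 597 bp in Rps29. At other promoters the 157 summits with the shared bases had a median of 122. The first window of Rpl38 has the same 12 bases with other neighbours and a signal of 551. Repeats were uncommon under member summits as a whole. Soft-masked were 9 of 65 summit bases, or 13.8% (6.53 to 24.7%), against 8.45% of 9589 (7.90 to 9.02%). Of the motif matches themselves, 7 of 14, or 50%, were soft-masked, against 21.4% of 1969 at other promoters. The masked member matches included 2 outside the shared stretch, at Rplp0 and in the first window of Rpl38. The shared stretch was noticed after the matches had been seen, and these counts describe it without a test.

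Many high member peaks had no close core. Among peaks of 500 or more, 8 of 20 member summits, or 40%, and 46.3% of 1885 other promoter summits had a match, and under 500 the shares were 13.3% of 45 and 14.2% of 7704. Rps14, at 755, had its closest stretch at 4 mismatches. No match says only that these letters are not within 50 bp of the summit. Of the 14 matches, 9 ran along the gene's strand and 5 against it.

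Member promoters, taken as 250 bases before to 50 after 1 TSS per gene, were CpG-rich, with a median observed over expected CpG of 0.84, against 0.56 over the other coding genes and 0.75 over the other occupied ones. Occupied and unoccupied members were close, at 0.85 and 0.83, with a median GC content of 55.5% and 55.3%. Of the other genes 10.7% were occupied under a CpG ratio of 0.25, 29.2% between 0.25 and 0.5, and over 50% above that, so shares were compared within classes of CpG ratio. Between 0.5 and 0.75, 12 of 19 members were occupied, or 63.2% (38.4 to 83.7%), against 51.4% of the other genes. Between 0.75 and 1, 25 of 37 were, or 67.6% (50.2 to 82.0%), against 57.3%, and at 1 or more 12 of 18, or 66.7% (41.0 to 86.7%), against 56.1%. In each of these 3 classes the other genes' share lies inside the members' interval. The gap there was narrower than the 65.0% to 37.9% over all genes. Between 0.25 and 0.5, where only 5 members stood, 3 were occupied, or 60% (14.7 to 94.7%), against 29.2%. The 1 member under 0.25 was unoccupied.

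**Figure D5:**
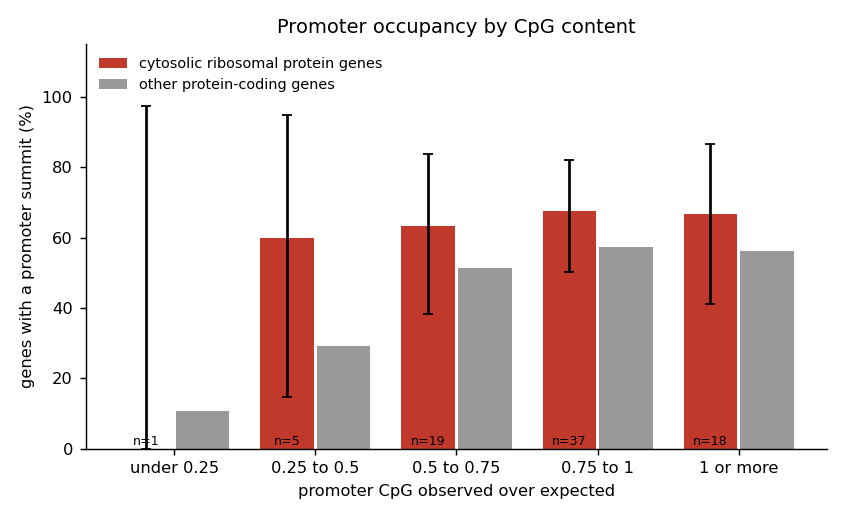
Share of genes (%) with a promoter summit by observed over expected CpG of the promoter, in cytosolic ribosomal protein genes (left bars, with 95% exact intervals and n) and other protein-coding genes (right bars). Above a ratio of 0.5 the members stand at 63.2 to 67.6% and the others at 51.4 to 57.3%.

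Short motifs were searched in the same window on both strands. The ETS core CCGGAA, bound by GABP and its relatives, was in 45.0% of member promoters and 18.2% of the others, and in 48.1% of occupied and 39.3% of unoccupied members. The YY1 core AAGATGG was in 12.5% of members and 6.32% of the others, and in 15.4% of occupied and 7.14% of unoccupied members. The Sp1 box GGGCGG was in 51.2% of members and 45.8% of the others, and in 50% of occupied and 53.6% of unoccupied members. TATAAA was in 11.2% of members and 12.6% of the others, and in 8 of 52 occupied members, or 15.4%, and 1 of 28 unoccupied ones, or 3.57%. Members and other genes thus stood furthest apart in the ETS core. Other occupied coding genes had the ETS core in 25.01%, the YY1 core in 6.55%, the Sp1 box in 62.7% and TATAAA in 6.72%. Occupied members stood above them in the ETS core, the YY1 core and TATAAA, and below them in the Sp1 box. None of these 4 strings contains another, and a match is not a bound site. A TOP start, a C at the annotated TSS followed by pyrimidines in a run of at least 5, was read at 8 members, or 10%, and 2.24% of other genes. Of those 8, the occupied ones included Rpl4, Rpl32, Rpl36, Rpl37, Rpl37a and Rps24, and Rps21 was unoccupied. A run of 8 or more pyrimidines within 5 bases before to 20 after the TSS was found in 17 of 52 occupied members, or 32.7%, in 4 of 28 unoccupied ones, or 14.3%, and in 8.16% of other genes. The annotated start can miss the used start by a few bases, so these are counts of the annotation.

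Neighbours shared some of the peaks. At 7 occupied members a promoter summit was also within 1 kb of another coding gene's TSS. For Rps10 that gene was RPS10-NUDT3, whose symbol includes that of Rps10 itself. The share among other occupied coding genes was not counted. A head-to-head coding neighbour was annotated for 8 members: Rpl15 with Nkiras1, Rpl35a with Iqcg, Rpl4 with Zwilch and Rps18 with Vps52 were occupied, and Rpl12 with Lrsam1, Rpl7a with Med22, Rpl9 with Lias and Rps28 with Ndufa7 were not. That is 50% (15.7 to 84.3%) of head-to-head members and 48 of 72, or 66.7% (54.6 to 77.3%), of the rest, against 55.8% and 36.5% in the other coding genes. Introns of ribosomal protein genes often hold small nucleolar RNAs, which guide modification of ribosomal RNA. Of 29 members with such a gene inside, 20 were occupied, or 69.0% (49.2 to 84.7%), and of the 51 without, 32, or 62.7% (48.1 to 75.9%).

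The X-linked members were all 4 occupied, where 19.5% of 948 coding genes on X were. They were Rpl36a and Rps4x, given above, with Rpl10 at 314 and Rpl39 at 149.5. On chromosome 7, which has the most members, 11 of 14 were occupied, against 31.2% of its coding genes. Chromosomes 9, 11 and 17 have 7 members each: 3 were occupied on chromosome 9, against 37.4% of its coding genes, 5 on chromosome 11, against 42.8%, and 5 on chromosome 17, against 36.6%. A fixed set of 15 genes mutated in Diamond-Blackfan anaemia in people, which need not be complete, had 12 occupied, or 80% (51.9 to 95.7%). The unoccupied ones were Rps7, Rps27 and Rps28. Of the 65 members outside that set 40 were occupied, or 61.5%, which lies inside the set's interval. Over all protein-coding genes the share was 38.0%. Rps27a, which encodes ubiquitin fused to a ribosomal protein, had 128 (58.5 and 69.4 in replicates 1 and 2).

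Ribosomal proteins that the symbol rule leaves out were occupied in 2 of 7 cases, or 28.6% (3.67 to 71.0%), against a background of 38.0%. Rps3a1 had 854, with 409 in replicate 1 and 448 in replicate 2, 42 bp upstream of the TSS, and Rpl7l1 had 610, with 294 and 311. Fau, Rack1, Rpl36al and Rpl22l1 were among those with no summit. Of 16 translation factors and other TOP mRNA genes 7 were occupied, or 43.8% (19.8 to 70.1%), with a median signal of 109. The initiation factor gene Eif3f stood at 798 (387 and 412) and the elongation factor genes Eef1a1 and Eef2 at 109 (43.3 and 64.6) and 63.2 (30.9 and 33.9). Of 16 genes of ribosome biogenesis and RNA polymerase I 8 were occupied, or 50% (24.7 to 75.3%), with 759 at Nop10 (368 and 397), a core protein of H/ACA particles, and 699 at Fbl (329 and 370.0), which encodes the methyltransferase fibrillarin. Of 10 regulators of ribosomal protein genes and TOP mRNAs 5 were occupied, among them Myc, with 5 summits and a highest signal of 475 (230 and 248). The intervals of all these lists include the background of 38.0%.

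Other peak lists of the same reads kept most occupied members. With the IDR at 0.01, 47 members were occupied, against a background of 34.7%, all of them among the 52. The pooled-read list gave 41, against 31.2%, again all among the 52. The replicate 1 list gave 50, against 34.0%, of which Rpl8 and Rpl14 were outside the 52, and the replicate 2 list gave 46, against 33.7%, of which Rpl8, Rplp1 and Rps27l were. In every one of these lists 40 members were occupied, with a median signal of 356, and the other 12 of the 52 had a median of 86.3. Among those 12, Rps6, Rps16, Rps24 and Rpsa were occupied in the between-replicate list at IDR 0.05 alone. Rps16 and Rps24 had a -log10 IDR of 1.31 and 1.32, against the 1.30 required. Absence from a list was found at high peaks too: Rpl26 and Rpl36, both over 750, had no summit within 1 kb in the pooled-read list, and Rpl26 had none in the replicate 2 list either.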

How the data were processed

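CTCF ChIP-seq peak lists of mouse hippocampus were used: 4 libraries, assigned to replicates 1 and 2 by the labels. The replicates are separate pools per the labels, and the technical libraries of a replicate have no values of their own. The build is mm10, per the labels. Neither aligner nor peak caller is named. The authors deposited thresholded and ranked lists for each replicate, for the pooled reads and for the comparison of replicates. The deposited signal is the caller's score for a peak, of unstated scale, and was used only within a list. The deposited IDR score is 540 at an IDR of 0.05 and 830 at 0.01, and the authors' q-value and IDR columns are -log10 values. Read depth is unknown, so no counting error per peak could be given, and the intervals (Clopper-Pearson, 95%) cover the number of genes or summits only.

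The between-replicate list at IDR 0.05 held 90278 peaks. Signals of replicates 1 and 2 came from its ranked form: 78.1% of the first input peaks were found in the replicate 1 list and 0.0% in that of replicate 2, and 80.0% of the second in the replicate 2 list and 0.0% in that of replicate 1. TSSs and exons were those of GENCODE M21 basic transcripts, and the bounds of a member were those of its annotated gene. Symbols were matched exactly, and 1 of the 5 restricted or divergent paralogues listed, Rps4l, matched no protein-coding gene. Sequences and soft-masking came from RefSeq GRCm38.p6, a single reference used for both alleles of the hybrids. Summits within 100 bp were taken as the same across lists. Scripts ran under Python 3.11.15 with scipy 1.17.1, pandas 2.3.3, matplotlib 3.10.9 and numpy 2.4.6, after a test on simulated peaks.

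The members and lists were chosen with earlier results of these data known, so shares are given as descriptions beside the background, with no test. Named were the 12 strongest and 3 weakest occupied members, the 3 largest and 3 smallest replicate ratios, and members with 2 or more summits. The same rule named the restricted or divergent paralogues, 3 members on each side of 1 kb, unoccupied members and those with an exact motif. A few genes that this rule selects are not reported here. Other members were named after their values were seen.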

Additional observations from a re-analysis of the deposited data

How the results depend on the processing

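The count of 52 occupied members stayed within 1.5 times under each alternative tried. It was 46 to 50 when either replicate was left out, 41 in the pooled-read list and 46 to 70 at limits of 500 bp to 5 kb. With TSSs of all transcripts it was 54. With any base of the peak in the window and with 1 TSS per gene it was 52. It was also 52 when only the strongest of overlapping peaks was kept. Other counts moved further. At a limit of 5 kb, 35 complex I genes and 12965 coding genes were occupied. Occupied pseudogenes numbered 3 at 500 bp, 36 at 2 kb, 79 at 5 kb, 9 in the pooled-read list and 10 to 11 without one replicate, and mitochondrial ribosomal protein genes 27 in the pooled-read list.

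The members' median signal of 299.9 was 349 at IDR 0.01 and in the pooled-read list, 279 at 500 bp, 286 at 2 kb, 522 at 5 kb and 348 with all transcripts. It was 167 to 169 without one replicate, where the values are on the scale of a single replicate. The share of summits with a motif was 4.62% for exact matches and 47.7% at 2 mismatches. Within 25 bp of the summit it was 13.8% for members and 16.8% for other promoters, so the members' share, above the others' within 50 bp, was below it there. The causes of these shifts were not tested, and the other alternatives moved these results by less. No paired analysis was possible because no result comes from a test between groups. Unknown read depth limits what can be said of the unoccupied members.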
